A study of Mus musculus with 6 samples.

Results

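The circRNAs described here were measured in retinas of room air (RA) control mice, and each was split by an antibody to N6-methyladenosine (m6A) into a bound (IP) and an unbound supernatant (Sup) fraction. Of the 14236 circRNA probes on the array, the 6306 (44.3%) that were well above background in both fractions on all 3 RA arrays were taken. The RA pups were C57BL/6J mice kept in room air throughout, and their retinas were collected on postnatal day 17. Each of the 3 samples (RA 1, RA 2 and RA 3) was a pool of 4 retinas from 2 mice and was hybridized to 1 array, so a value is an average over 2 animals and over every retinal cell type. The rule used whether a probe was lit in each fraction, not the ratio between the fractions.

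Circular RNAs form when a downstream splice donor of a transcript is joined to an upstream acceptor, which leaves a closed ring with no cap and no poly(A) tail. They resist exonucleases such as RNase R, and neural tissue, the retina included, is rich in them. m6A is placed on adenosines of nascent RNA by the METTL3-METTL14 methyltransferase complex, can be removed by FTO and ALKBH5, and is read by YTH-domain proteins. On circRNAs it has been linked to nuclear export, translation without a cap and decay. The files list circRNAs by the probe identifiers of the array and do not pair them with circRNA names, host genes or sequences, so the circRNAs are described as a population, and by identifier where single ones are given.

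On every array the IP fraction was labeled with Cy5 and the Sup fraction with Cy3, with 0 dye swaps, so a difference between the fractions and a difference between the dyes cannot be told apart. The main measurement was the log2 ratio of IP to Sup intensity within an array, minus the mean log2 ratio of the spike-in spots of that array. At a value of 0 a circRNA divides between the fractions like the average spike-in, and the corresponding methylation level, normalized IP over normalized IP plus Sup, is 50%. The files do not say which spike-ins carry m6A, so a level is a share relative to these spots and not a measured fraction of methylated molecules. The median background-subtracted IP intensity of the 6306 circRNAs was 60.3 on RA 1, 54.4 on RA 2 and 26.5 on RA 3, and the median Sup intensity was 74.0, 83.9 and 40.0 in the same order. RA 3 was thus the dimmest array in both channels. The spike-in log2 ratio that was subtracted was 0.944, 0.870 and 0.797, with a standard error over spike-in probes of 0.116, 0.0849 and 0.0888. Precision is limited throughout by there being 3 arrays. None of the 32 retinal cell type markers that were looked for is carried as a linear probe on this array, so the labelled tissue could not be checked against its markers.

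Relative to the spike-ins, most circRNAs of the room air retina gave more signal in the unbound than in the m6A-bound fraction, a direction that turned only where the arrays were scaled to the circRNAs themselves, as given below. The median log2 IP/Sup of the 6306 circRNAs was -0.98 on RA 1, -1.17 on RA 2 and -1.12 on RA 3, a mean of -1.09 ± 0.101 (SD, n = 3). All 3 medians lay below 0, and the two-sided exact sign-flip permutation test gave p = 0.25, the smallest p that 3 arrays allow. As methylation levels, the medians were 33.7%, 30.7% and 31.5%, a mean of 32.0% ± 1.53 (SD, n = 3). The share of circRNAs with a level above 50% was 22.1%, 19.4% and 22.8% on the 3 arrays. The summed intensity of all 6306 circRNAs gave a pooled level of 29.9%, 29.9% and 29.4%, so weighting the circRNAs by their signal gave a value close to the median.

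The levels were spread unevenly around this median. Averaged over the 3 arrays, the log2 IP/Sup of single circRNAs ran from -5.94 to 1.68, the highest of which corresponds to a level of 76.2%. The 25th percentile was -2.28 (a level of 17.0%) and the 75th percentile -0.14 (a level of 47.6%). The 5th percentile was -4.06, the median -1.08 and the 95th percentile 0.64. The longer tail ran towards the unbound fraction, which does not depend on where 0 is set.

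**Figure D1:**
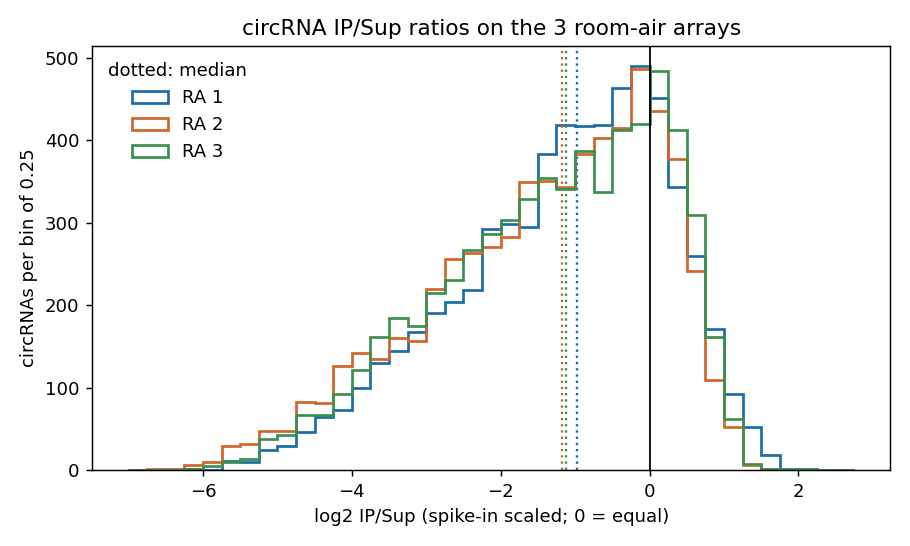
Histogram of log2 IP/Sup (x axis, spike-in scaled, bins of 0.25) of the 6306 circRNAs on RA 1, RA 2 and RA 3, with the number of circRNAs on the y axis and the median of each array as a dotted line. The 3 outlines peak near 0, fall steeply on the bound side and extend below -5 on the unbound side, and the medians lie at -0.98, -1.17 and -1.12.

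A level above 50% on all 3 arrays was measured for 990 circRNAs (15.7%), and a level below 50% on all 3 arrays for 4538 (72.0%). Another 757 (12.0%) lay on both sides of 50%, and 21 had no value on RA 1 because the spot was marked as an outlier there. Intermediate levels, from 20% to 50% on each array, were found for 2251 circRNAs (35.7%). Low levels were common, with 1494 circRNAs (23.7%) below 20%, 590 (9.36%) below 10% and 159 (2.52%) below 5% on all arrays. High levels were rare, with 233 circRNAs (3.69%) above 60% and 3 above 70% on all arrays.

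In limma with Benjamini-Hochberg adjustment over the 6306 circRNAs, 660 were higher in IP than in Sup at an adjusted p under 0.05, which is 10.5% of the circRNAs tested. In the same test 4219, or 66.9%, were higher in Sup, and 1427 (22.6%) were not called. The circRNAs described are all those tested, so these shares are themselves the background of the comparison. All 660 circRNAs called to IP had a level above 50% on every array, and 4212 of the 4219 called to Sup had one below 50% on every array. Without RA 3 the count called to IP was 377 and without RA 2 it was 387, while the count called to Sup stayed between 3774 and 4431 when any array was left out.

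The called circRNAs differed from 0 by unequal distances on the bound and unbound sides. The 660 higher in IP had a median log2 IP/Sup of 0.62, a level of 60.6%, and 83 of them were at least 2-fold higher in IP. The 4219 higher in Sup had a median of -1.83, a level of 22.2%, of which 1886 were at least 4-fold and 334 at least 16-fold higher in Sup. The 1427 circRNAs that were not called had a median of -0.04 and lay between -1.58 and 0.65. On this scale a ratio had to be at least 0.35 from 0 to be called in either direction, since the smallest called values were 0.35 and -0.35.

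Where 0 lies depends on the spike-ins, and with it the division of the calls. Without spike-in scaling, 2083 circRNAs were called higher in IP and 2738 higher in Sup. All 660 called to IP with the scaling were among the 2083. That overlap was nearly fixed in advance, since leaving out the subtraction raised every ratio. With each array centred on the median of its circRNA spots the counts were 2685 and 2350, and after loess within each array 2960 and 2089, since both settings remove the common shift by construction. The median log2 IP/Sup was -0.22 without scaling, -0.37 with normexp and -0.44 with no background correction, and it turned to 0.13 with median centring and 0.30 after loess. Background correction moved the counts too, to 1079 and 3556 with normexp and to 1288 and 3324 with no correction. Of the 660, 583 were still called to IP with normexp and 633 with no correction. On the scanner software's processed signals 532 were called to IP, of which 364 were among the 660. Over all circRNAs, the order had a Spearman correlation with the reported order of 0.964 after loess, 0.982 with normexp and 0.937 on the scanner software's processed signals. The bound end of the order moved more than this shows, since of the 631 circRNAs with the highest ratios, the top 10%, 400 were still among them after loess, 433 with normexp and 379 on processed signals. At the unbound end the same settings kept 553, 482 and 534. These are descriptions across circRNAs, which share arrays and are not independent replicates. The counts are therefore read relative to the spike-in average.

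**Figure D2:**
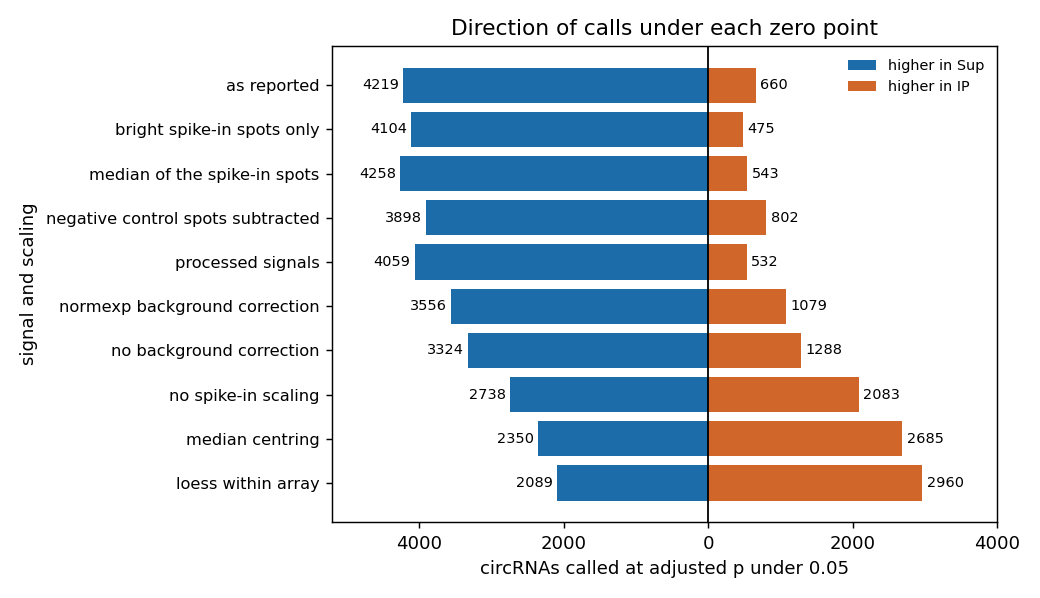
Number of circRNAs called higher in Sup (bars to the left) and higher in IP (bars to the right) at a limma adjusted p under 0.05 (x axis), for the reported values and 9 other ways to correct and scale the same 3 RA arrays (y axis). The 4219 and 660 calls of the reported setting become 2738 and 2083 with no spike-in scaling, and the larger side turns to IP with median centring and loess.

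The ratio of a circRNA was reproducible from array to array. Across circRNAs, log2 IP/Sup correlated at 0.942 by Pearson and 0.935 by Spearman between RA 1 and RA 2, 0.926 and 0.919 between RA 1 and RA 3, and 0.980 and 0.978 between RA 2 and RA 3. These values have no p, since circRNAs of 1 array share its hybridization and dyes. RA 2 and RA 3 were the closest pair although RA 1 and RA 2 shared a scan and RA 3 was scanned separately. The SD of the mean ratio across circRNAs was 1.46, whereas the SD of 1 circRNA between arrays had a median of 0.252 and lay between 0.0871 and 0.553 for the middle 80% of circRNAs, from the 10th to the 90th percentile. The variance across circRNAs was 17.0 times the mean variance of 1 circRNA between arrays.

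Many circRNAs at the ends of the distribution were the same on each array. Of the 628 circRNAs with the highest ratios of an array, the top 10%, 420 (66.9%) were in the top 10% on all 3, and of the 628 in the bottom 10%, 473 (75.3%) were there on all 3. No circRNA (0) was in the top 10% of one array and the bottom 10% of another. RA 1 gave higher ratios than the other arrays on the unbound side in particular. In the lowest 20% of circRNAs by the mean ratio of a pair of arrays the median difference was 0.45 between RA 1 and RA 2 and 0.24 between RA 1 and RA 3, against 0.14 and 0.051 in the highest 20%.

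**Figure D3:**
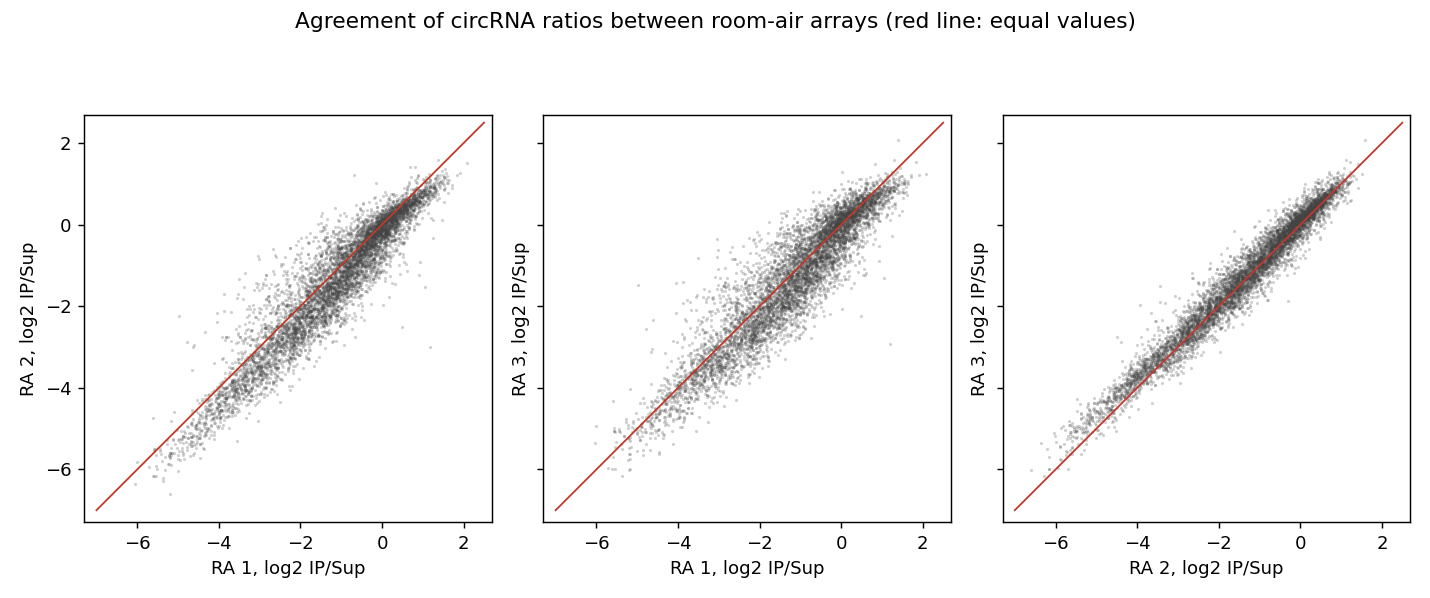
log2 IP/Sup of each circRNA on one RA array (x axis) against another (y axis) for the 3 pairs of arrays, with equal values on the red line. Points of RA 2 and RA 3 follow the line closely (r = 0.980), while many points of RA 1 lie below it at the unbound end, where RA 1 exceeded RA 2 by a median of 0.45.

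The circRNAs with the highest and the lowest mean ratio are given by identifier. Probe ASCRP4009080 had the highest mean, with levels of 72.3%, 74.9% and 80.8% on RA 1, RA 2 and RA 3. Its IP intensity was 142, 159 and 68.6, and its Sup intensity 28.4, 29.2 and 9.37. All 3 arrays gave far more bound than unbound signal, a mean log2 IP/Sup of 1.68 ± 0.358 (SD, n = 3; limma, Benjamini-Hochberg adjusted p = 0.000144). Probe ASCRP4014191 came next, with levels of 80.9%, 74.0% and 70.5% and a mean log2 IP/Sup of 1.62 ± 0.426 (SD, n = 3; limma, Benjamini-Hochberg adjusted p = 0.000260). The levels of these highest probes overlapped, so their order is not resolved by 3 arrays.

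At the unbound end, probe ASCRP4012047 had an IP intensity of 58.6, 33.9 and 14.1 and a Sup intensity of 1269, 1449 and 578 on RA 1, RA 2 and RA 3. Its levels were 2.35%, 1.26% and 1.39%, and its mean log2 IP/Sup was -5.94 ± 0.490 (SD, n = 3; limma, Benjamini-Hochberg adjusted p = 2.50e-06). Probe ASCRP4014212 had an IP intensity of 41.8, 19.4 and 16.6 against a Sup intensity of 794, 1027 and 616. Its levels were 2.66%, 1.02% and 1.52%, with a mean log2 IP/Sup of -5.93 ± 0.705 (SD, n = 3; limma, Benjamini-Hochberg adjusted p = 3.30e-06). Both were bright in Sup on every array and still above background in IP, and their levels overlapped. Each of the 4 probes kept its direction and its call in 21 of 21 other settings, in which the mean log2 IP/Sup ran from 0.89 to 3.10 for ASCRP4009080 and from -6.22 to -3.90 for ASCRP4012047. The 4 were picked as the extremes of these same values, and several of the settings leave the mean unchanged by construction. Their stability is therefore no independent support.

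The median ratio was higher among brighter circRNAs in the background-subtracted intensities, though not in the processed signals. The circRNAs were put in 5 bins of near equal number by the geometric mean of IP and Sup intensity, whose median rose from 19.8 in the dimmest to 312 in the brightest bin. The median log2 IP/Sup of the bins, from dim to bright, was -1.32, -1.27, -1.21, -0.90 and -0.23, which corresponds to levels of 28.9%, 29.5%, 30.3%, 35.1% and 46.1%. The brightest bin exceeded the dimmest by 0.81 on RA 1, 1.21 on RA 2 and 1.21 on RA 3, a mean of 1.08 ± 0.229 (SD, n = 3). The two-sided exact sign-flip permutation test gave p = 0.25, the smallest possible. This difference was -0.11 on the scanner software's processed signals, which that software had already dye-normalized, and 0.13 after loess, which removes a trend with brightness by construction. With normexp it was 0.63. It also moved with the filter, to 1.85 over probes well above background in 1 channel or more and to 0.27 with no filter, where dark probes sit at the floor of both channels. Brightness is an array signal and not an amount of circRNA, since probes differ in how they bind.

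Brightness went with spread and with calls as well. The width from the 10th to the 90th percentile grew from 2.41 in the dimmest to 4.43 in the brightest bin, and the median SD between arrays fell from 0.333 to 0.167. The dimmest bin held 26 circRNAs (2.06%) called to IP and 1033 (81.9%) called to Sup, and the brightest held 308 (24.4%) and 571 (45.3%). Levels below 10% on all arrays were found for 17 circRNAs of the dimmest and 161 of the brightest bin. The rule itself limits low levels among dim circRNAs, since a probe whose IP signal is not above background is not in the set. It also limits high levels among them, since Sup must be above background too, and the flag asked for more signal in Sup than in IP. The part of these limits in the calls of the dimmest bin and in the difference between bins was not tested. Over all 6306 circRNAs the correlation of the ratio with brightness was weak, 0.105 by Pearson and 0.155 by Spearman, a description across circRNAs whose ratio and brightness share the same signals.

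The 100 brightest circRNAs, with a geometric mean intensity of 2148 to 30320, spanned levels from 3.54% to 68.2% with a median of 49.4%. Of these, 28 were called to IP, 44 to Sup and 28 to neither, and 7 had a level below 10% on all arrays. Well-measured circRNAs thus lay at both ends of the range.

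**Figure D4:**
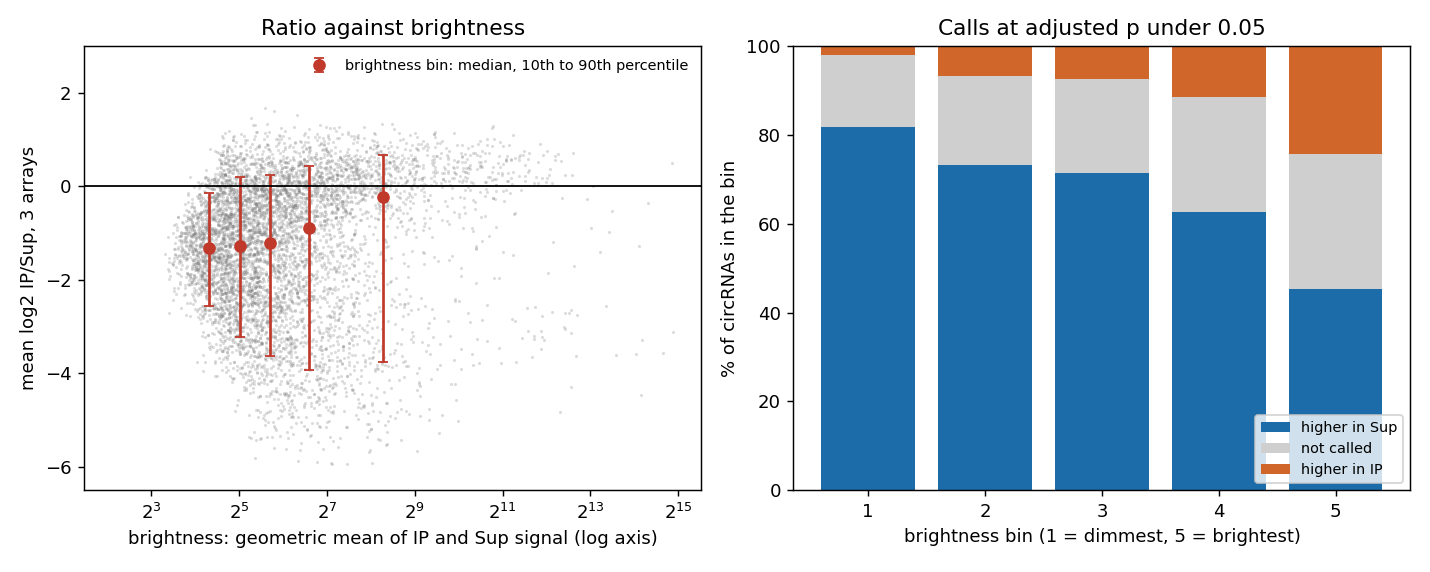
Left, mean log2 IP/Sup over 3 arrays (y axis) against brightness (x axis, log scale) for each circRNA, with the median and the 10th to 90th percentile of each brightness bin. Right, share of each bin called higher in Sup, higher in IP or not called, where the share called to IP rises from 2.06% to 24.4% from the dimmest to the brightest bin.

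The ratio varied little with the position of a probe on the array. Over 8 bands of rows the median log2 IP/Sup lay between -1.23 and -0.99, and over 8 bands of columns between -1.22 and -1.03. Ratios of neighbouring spots correlated with an r of 0.0175 over 2587 pairs, and those of probes with successive identifier numbers with an r of 0.0332 over 2871 pairs.

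Linear transcripts on the same arrays were the nearest other features. The array carries 50 linear probes in 10 spots each, of which 22 passed the same flags in at least 5 spots. RNase R had been applied to both fractions to remove linear RNA, so a linear level is a share of the signal left after digestion and not of the whole transcript. The part of the digestion in the linear ratios, and in their difference from the circRNAs, was not tested. The median log2 IP/Sup of the 22 was 0.01 on RA 1, -0.21 on RA 2 and 0.07 on RA 3. The circRNA median was lower by 0.99, 0.96 and 1.19, a mean difference of -1.05 ± 0.126 (SD, n = 3; two-sided exact sign-flip permutation test, p = 0.25, the smallest possible). This difference does not depend on the spike-ins, which shift both medians alike. It is therefore the same by construction with no scaling, the bright spike-in spots, the spike-in median and median centring. These included, it stayed below 0 in each of the 15 other settings run, from -1.50 to -0.39.

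Relative to the spike-ins, the linear transcripts split into 10 above a level of 50% on all arrays, 10 below and 2 on both sides. The highest was Pex11a, which encodes a peroxisomal membrane protein, with a log2 IP/Sup of 0.57, 0.97 and 1.14 on RA 1, RA 2 and RA 3 and a level of 64.9% ± 4.64 (SD, n = 3). Anxa8, an annexin, followed at 0.75 ± 0.115 and Gamt, an enzyme of creatine synthesis, lay at 0.48 ± 0.0995. Between them lay, among others, Il2, an interleukin, at 0.60 ± 0.215 and Olfr166, an olfactory receptor, at 0.51 ± 0.0781. What the linear probes detect in the retina was not tested. Lhx1, a transcription factor of horizontal cells in the retina, had levels of 57.0%, 54.0% and 56.6%, all above 50%.

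The lowest linear transcript was Actb, cytoplasmic beta-actin, with a log2 IP/Sup of -1.85, -2.52 and -2.61 and a level of 16.9% ± 4.21 (SD, n = 3). Its signal was dim, with a mean IP intensity of 18.3 and a mean Sup intensity of 45.4, against 6736 and 2032 for Pex11a. Only 24.3% of the 6306 circRNAs had a lower mean ratio than Actb. Apoe, a lipid carrier that Muller glia secrete in the retina, had levels of 48.7%, 43.0% and 41.4%, Prdx2, a peroxidase, had a mean of 39.2% ± 2.82 and Gpi1, a glycolytic enzyme, one of 30.7% ± 3.78 (SD, n = 3 each). The 10 spots of 1 linear probe had a median SD of 0.165 on the log2 scale, against a median SD between arrays of 0.213 and an SD of 1.05 across the transcripts. The spread across linear transcripts thus exceeded both the spot and the array error, and their range lay within that of the circRNAs.

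**Figure D5:**
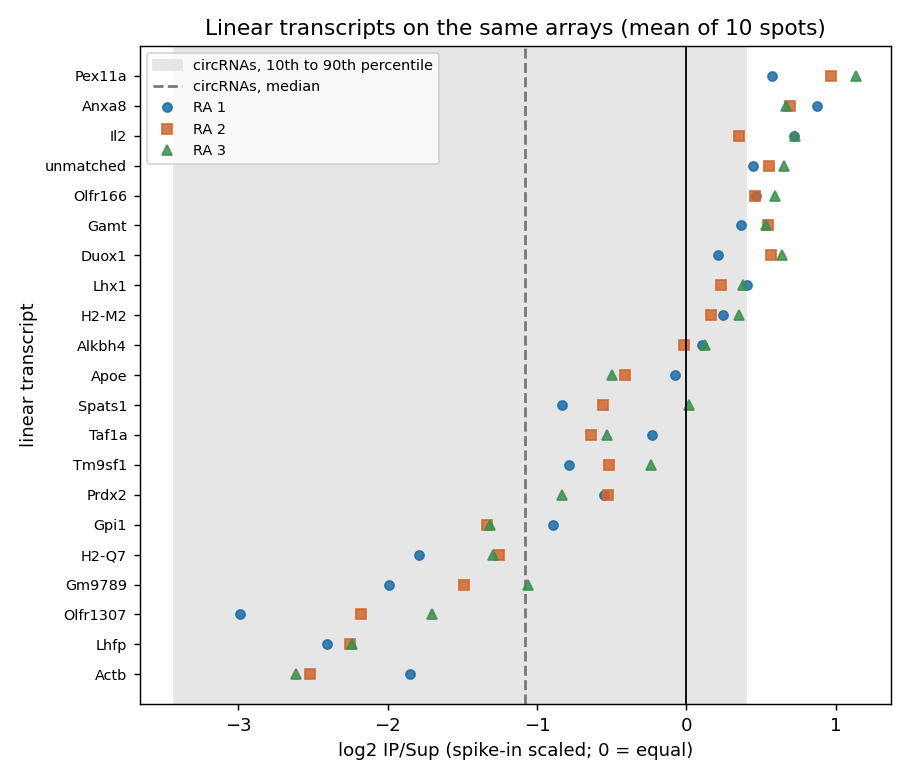
log2 IP/Sup (x axis, spike-in scaled) of 21 of the 22 linear transcripts that passed the flags (y axis, 1 without a matched symbol), with 1 point per RA array, each the mean over the spots of a probe. The grey band and dashed line give the 10th to 90th percentile and the median of the 6306 circRNAs, and most linear transcripts lie to the right of that median, with Pex11a highest and Actb lowest.

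Many circRNA probes outside the set also gave signal. Neither channel was well above background on any array for 2126 circRNAs (14.9%), and the other 5804 (40.8%) passed the flag at least once in 1 or both channels. Sup alone was complete for 1874, which were above background in Sup on all arrays and in IP on fewer, and IP alone was complete for 982. The flag asked for a higher signal in Sup, where the dimmest circRNA spot well above background had an intensity of 12.3, 9.17 and 7.80 on the 3 arrays, than in IP, where it had 5.22, 5.001 and 5.83. At those limits of both channels the scaled log2 ratio was -2.18 on RA 1, -1.74 on RA 2 and -1.22 on RA 3, so the dimmest circRNAs of the set enter it on the unbound side of 0. The part of this limit in the median of the set was not tested, and the median over all 14236 probes with no filter was -1.22, which includes dark probes whose ratio is set by the floor and the spike-ins.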

How the data were processed

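Retinas of 3 RA samples were measured on 1 two-colour m6A-circRNA array each, with IP in Cy5 and Sup in Cy3, after RNase R digestion. The authors extracted spots with Agilent Feature Extraction 11.0.1.1 and deposited the intensity of 15710 spots per array with flags, not normalized between arrays. OIR arrays entered no fit. Outlier spots (21 members on RA 1) were left out, background-subtracted intensities under 1 were set to 1, and log2 IP/Sup was taken minus its mean over the 306 spots of 102 probes, which were read as spike-ins from their names. The ratio pairs the fractions of 1 sample, since both come from the same RNA and array.

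Ratios were tested against 0 with limma 3.58.1 in R 4.3.3 (lmFit with an intercept, eBayes) and Benjamini-Hochberg adjustment over 6306 circRNAs, called at an adjusted p under 0.05. Array medians were tested with an exact sign-flip permutation test. Alternatives covered scaling, background, filters, the pairing, the scan, the test and each array left out. Those for negative controls, the spike-in median and the scan as a fixed term were added after seeing the data. In simulated data, limma recovered 80 of 200 circRNAs changed 2-fold among 6306 (40%) and called 2 unchanged ones. All others were simulated at 0 there, whereas 660 and 4219 were called in the data, so the adjusted threshold was stricter in the simulation. The 40% therefore does not measure the power of this comparison, in which every uncalled circRNA had a mean between -1.58 and 0.65. Lacking circRNA names, the text names the 2 highest and the 2 lowest called probes. Linear probes were named by accession through RefSeq gene tables of GRCm38.p6 (46 of 50 matched), and those cited were chosen after their values were seen. The values of 1 linear transcript are not reported here, though counts and medians include it. The members, gene lists and tests were chosen with earlier results of these data known. The labels do not say how the samples relate beyond the pools, so p-values measure the spread between these 3 samples. Host genes, sequences and positions of the circRNAs were not analysed here.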

Additional observations from a re-analysis of the deposited data

Results flagged for a closer look

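The array's own circRNA control probes, 14 probes in 42 spots that belong to no comparison above, passed the flag for signal well above background in every spot of both channels on the RA arrays. Their median log2 IP/Sup was -3.87 on RA 1, -4.14 on RA 2 and -3.83 on RA 3, a mean of -3.95 ± 0.171 (SD, n = 3), which corresponds to a level of 6.11%. All 14 lay below 0 on every array, with means from -5.36 to -1.87, and 5.57% of the 6306 circRNAs had a lower ratio than their mean. What these probes are made to detect is not given in the sources used here.

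Signal was also seen in a single fraction. On all 3 arrays 183 circRNAs were well above background in IP and on none in Sup, with a median IP intensity of 11.7. The reverse held for 313 circRNAs, with a median Sup intensity of 24.7. The flag asked for a higher signal in Sup than in IP on every array, so the sizes of these sets cannot be compared, and no fold is given.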

How the results depend on the processing

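The 660 circRNAs higher in IP became 2083 with no spike-in scaling, 2685 with median centring, 2960 with loess, 1079 with normexp and 1288 with no background correction. They fell to 475 with the bright spike-in spots only. On processed signals they numbered 532, and 364 of those were among the 660. The paper used a fold of 1.5 and an unadjusted p under 0.05 between its OIR and RA groups, not between IP and Sup. At that threshold the circRNAs higher in IP numbered 366 by limma and 329 by a t-test of the ratios against 0. With each array left out, and the adjusted threshold, they numbered 377 to 746. The 4219 higher in Sup became 2738 with no spike-in scaling, 2350 with median centring, 2089 with loess and 8564 of 14236 with no filter. That last count is not informative, because a probe dark in both channels is set to the floor in both, and its ratio then equals minus the spike-in ratio with little spread. The median of -1.09 turned to 0.13 with median centring and 0.30 with loess, and the difference of 1.08 between the brightest and dimmest bins turned to -0.11 on processed signals. The cause of the changes with background correction and processed signals was not tested. The circRNA minus linear difference kept its sign in 15 of 15 settings, by construction in those that only move 0. Without the replicate block, that is with IP and Sup fitted as unpaired groups, 498 circRNAs were higher in IP and 3957 higher in Sup, and the circRNA median and the 4 named probes kept their direction and their side of the threshold. The brightness and the linear transcript differences were not run unpaired. With the scan as a fixed term the counts were 493 and 4043, while the planned random block for the scan could not be fitted with 3 arrays. Dim signals near the background limit the lowest levels, and among dim circRNAs the highest too. Dye and fraction cannot be told apart.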
